A study of Sus scrofa with 96 samples.

Results

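The kidney cortex of pigs was compared with 3 other tissues of the same study, jejunum mucosa, liver and longissimus dorsi muscle, across all measured genes. The kidney libraries were those whose tissue label reads kidney, and each count file was assigned to the sample whose plate well and number stand in the file's own name. Libraries under 1000000 counts were dropped. This kept 24 kidney libraries, 12 from pigs on the control diet and 12 from pigs on the xylose diet, of 90 kept libraries and 96 in all. The remaining libraries were 19 from jejunum, 23 from liver and 24 from muscle. The control diet was semi-purified and free of xylose, and the treated pigs ate that diet with 8% D-xylose, a pentose sugar. The series design names 24 animals; the labels state no breed, age or sex. RNA of kidney, jejunum and liver was purified with a standard column kit and RNA of muscle with a kit for fibrous tissue, so that kit and tissue cannot be told apart in the comparison with muscle. Diets were pooled for the comparison of tissues, and the labels used here do not tie a library to an animal, so tissues of 1 animal were treated as separate samples.

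Libraries were made by 3′ mRNA sequencing (QuantSeq), which reads 1 fragment near the end of each transcript, so that a count does not grow with transcript length. Levels of different genes are still only roughly comparable, since how well each transcript end was counted is not known. Levels are given as counts per 1000000 (CPM) after TMM scaling, a method that sets the middle of the genes equal between libraries. Kidney libraries held 1500278 to 6942566 counts with a median of 3084891. The files of 90 of the 96 libraries were recorded under another sample than the one in their name, but all 24 kidney libraries were kidney under both assignments and the record exchanged only jejunum with liver. Kidney libraries differed from each other by more than counting noise in all 276 pairs, with a smallest chi-square per degree of freedom of 6.78. Markers of the other tissues were a small share of kidney counts, from 0.134% to 0.495% for hepatocyte genes, from 0.0335% to 0.117% for enterocyte genes and from 0.119% to 0.601% for skeletal muscle genes.

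Of the 24 kidney libraries, 3 stood apart from the other 21. They were control replicates 5 and 7 and xylose replicate 17, whose 4939 genes above 20 CPM deviated from the kidney median by a mean of 0.89, 0.80 and 0.89 on the log2 scale, against a median deviation of 0.29 over kidney libraries. Mitochondrially encoded genes took 12.7%, 8.25% and 18.9% of their counts, against a kidney median of 8.66%. The first principal component of the 24 kidney libraries held 47.9% of the variance. Outside kidney, 1 muscle library, xylose replicate 19, deviated by 1.04 and had 0.678% of its counts in hepatocyte genes, against a muscle median of 0.111%. In liver 1 library, control replicate 6, deviated by 0.81. Muscle xylose replicate 24 was at 0.69, just under the threshold of 0.7, and was not counted as standing apart. Several of the results that rest on the 3 kidney libraries or on the muscle library that stood apart are given with and without them.

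Kidney cortex holds glomeruli, where podocytes filter the blood, and the tubule segments that process the filtrate in turn. The proximal tubule reclaims sodium, phosphate, glucose, amino acids and filtered protein, the thick ascending limb takes up salt without water, and the distal tubule and collecting duct adjust salt, water and acid under hormonal control. Proximal tubule cells also make glucose from amino acids and lactate, activate vitamin D and break down inositol and uronic acids. In a bulk sample, fewer cells of a type and less RNA per cell cannot be told apart.

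All 5 marker genes were far higher in kidney than in the other tissues, and for each of them the lowest kidney library lay above the highest library of any other tissue. UMOD, which encodes uromodulin, the main protein secreted by the thick ascending limb, ranged from 318 to 7926 CPM in kidney with a median of 2217. Its mean was 2285 ± 1400 (SD, n = 24) in kidney, 28.6 in jejunum, 23.1 in liver and 30.7 in muscle. Both extremes were libraries that stood apart, replicate 17 at the low end and replicate 7 at the high end. Without those libraries the kidney range narrowed to 1197 to 3753 CPM.

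SLC34A1, the phosphate carrier of the proximal tubule brush border, ranged from 445 to 1687 CPM with a median of 1078 in kidney, and its log2 fold change against the mean of the other tissues was 6.65 ± 0.11 (SE). SLC12A1, the furosemide-sensitive cotransporter of the thick ascending limb, ranged from 96.6 to 435 CPM with a median of 158. The log2 fold change of SLC12A1 was 6.06 ± 0.13, close to the 6.39 ± 0.13 of UMOD. MIOX, the oxygenase that opens the inositol ring, was the steadiest of the markers, from 973 to 1869 CPM with a median of 1334. Of the 5 it also had the highest mean in another tissue, 138 CPM in liver, and its log2 fold change was 5.36 ± 0.12. CUBN encodes cubilin, a receptor that takes up filtered protein, and ranged from 30.6 to 444 CPM with a median of 50.1. Its highest libraries were replicates 17 and 5, which stood apart, and its log2 fold change of 5.55 ± 0.20 was 5.12 without the 3 libraries. The largest adjusted p among the 5 markers was 8.26e-45 (edgeR quasi-likelihood test, Benjamini-Hochberg adjustment over all tested genes).

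**Figure D1:**
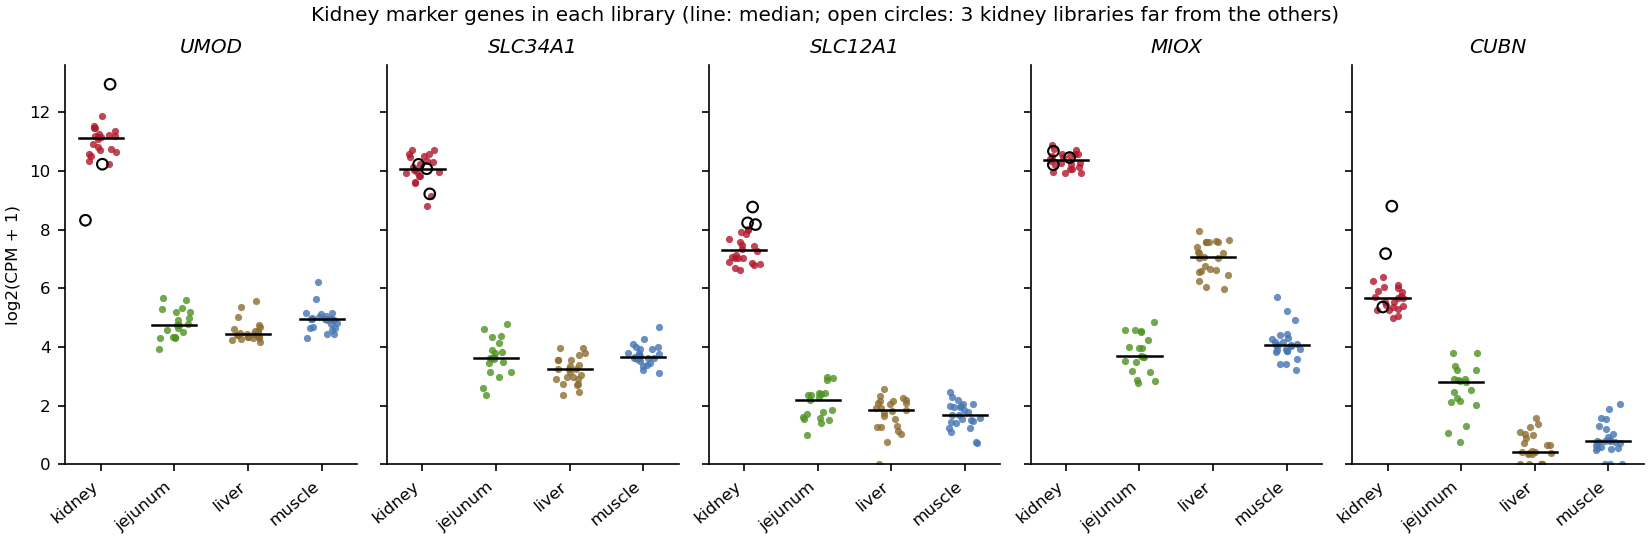
Level of the 5 kidney marker genes in each library, as log2(CPM + 1), by tissue. Points are libraries, lines are tissue medians and open circles are the 3 kidney libraries that stood apart. Kidney points lie above every other point in each panel, and the nearest approach is CUBN, whose lowest kidney library (30.6 CPM) is above the highest jejunum library (12.9 CPM).

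Kidney differed from the mean of the other tissues in most genes. Of 25880 gene identifiers, 11511 were expressed enough to be tested, and 8092 of these (70.3%) differed at an adjusted p below 0.05 at any size (edgeR). Calls were therefore limited to genes that also differed at least 2-fold. On that rule 2059 genes (17.9%) were higher and 1610 (14%) lower in kidney, with a median log2 fold change of 0.02 over all tested genes. A stricter rule asked that kidney pass against jejunum, liver and muscle one by one. It called 713 genes (6.19%) higher and 158 (1.37%) lower than in each other tissue. In 221 genes (1.92%) every kidney library lay above every other library, and in 8 genes (0.0695%) every kidney library lay below.

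These counts held without the 3 libraries that stood apart, where 1962 genes were higher, 1732 lower, 681 higher than in each tissue and 195 lower than in each. Without the muscle library that stood apart 134 genes were lower than in each tissue, and 129 of these were among the 158. The counts depended on the scaling. Scaling by library totals in place of TMM moved the median log2 fold change by 0.87, gave 5134 higher and 779 lower genes, and raised the share of calls that were higher from 56.1% to 86.8%. Under it 1674 genes were higher and 31 lower than in each tissue, and all 713 genes called higher than in each tissue by TMM were among the 1674. The 713 genes took a median of 9.6% of the scaled counts of a kidney library, against 1.07% in jejunum, 0.791% in liver and 0.419% in muscle. Of the 713, 345 were at least 4-fold higher than in each tissue, and 102 passed a log2 fold change of 4 and 15 a log2 fold change of 6 against each. The tissue with the next highest mean was jejunum for 253 of the 713, liver for 233 and muscle for 227.

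**Figure D2:**
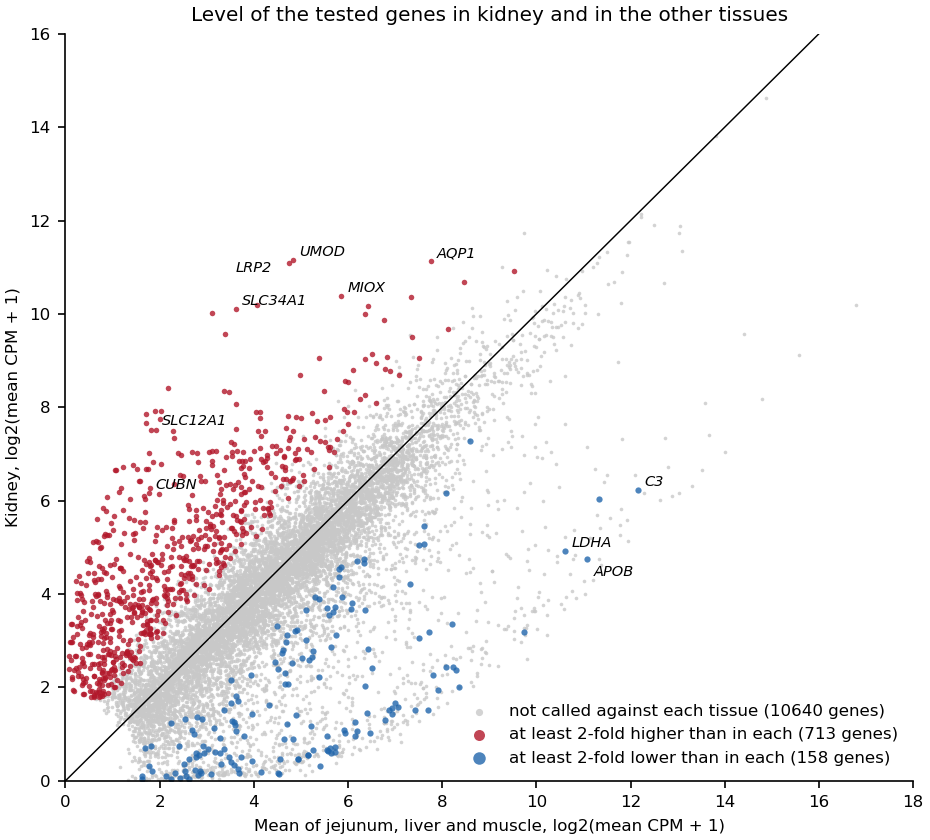
Kidney level of each tested gene against the mean of jejunum, liver and muscle, both as log2(mean CPM + 1), with the line of equality. The 713 genes at least 2-fold higher than in each tissue are red and the 158 at least 2-fold lower are blue.

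The most abundant kidney genes were also counted at a low level in the other tissues. Among the 21 genes higher than in each tissue with a kidney mean of 500 CPM or more, the lower quartile of the level elsewhere was 1.34% of the kidney level in jejunum, 1.34% in liver and 1.39% in muscle, and the median was 9.9%, 14.3% and 2.11%. UMOD stood at 1.25%, 1.01% and 1.34% of its kidney level in jejunum, liver and muscle, and SLC34A1 at 1.16%, 0.776% and 1.14%. Whether reads from kidney libraries made up part of these levels was not tested.

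The 12 genes with the largest log2 fold changes, among genes with a symbol and at least 10 CPM that were higher than in each tissue, lay between 6.34 and 6.71. KLK1, tissue kallikrein, a protease of the connecting tubule, led with 6.71 ± 0.16, and ranged from 49.9 to 614 CPM with a median of 211 in kidney, while its highest library elsewhere reached 8.24 CPM. CDH16, the kidney-specific cadherin, followed SLC34A1 with 6.63 ± 0.13 and 163 to 564 CPM with a median of 341. STRA6, the receptor that takes retinol from its carrier protein, had 6.57 ± 0.13 and 34 to 186 CPM. In all 3 genes the kidney libraries did not overlap those of other tissues.

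Others of the 12 were carriers or uptake receptors of the tubule. SLC12A3, the thiazide-sensitive cotransporter of the distal convoluted tubule, ranged widely, from 1.09 to 61.6 CPM with a median of 15.3 in kidney, and its lowest kidney library lay below the highest jejunum library at 2.57 CPM. Its fold change of 6.55 ± 0.26 rested on 12 counts in jejunum, 11 in liver and 7 in muscle against 2504 in kidney. SLC22A12, the urate exchanger URAT1, had a log2 fold change of 6.50 ± 0.18 with 32.6 to 447 CPM, and 6.21 without the 3 libraries that stood apart. SLC22A2, the organic cation carrier of the basolateral side, reached 312 to 1846 CPM with a median of 665 and a log2 fold change of 6.34 ± 0.14. LRP2, megalin, the partner of cubilin in protein uptake, had 6.41 ± 0.12 with 689 to 3601 CPM and a median of 2280. The other members were TMIGD1, a membrane adhesion protein of epithelia (6.49 ± 0.16), AADAT, an aminotransferase of lysine and tryptophan breakdown (6.38 ± 0.25), and GLB1L2, which resembles a beta-galactosidase (6.34 ± 0.17).

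By level, the 12 leading genes of the 713 mixed tubule transport with metabolism. AQP1, the water channel of the proximal tubule and thin limb, had 2233 ± 935 CPM (SD, n = 24), from 549 to 4267, and a log2 fold change of 3.79 ± 0.12 with 363 CPM in muscle. SLC25A6, a mitochondrial ADP/ATP carrier, had 1946 ± 737 CPM but only a log2 fold change of 1.40 ± 0.12. DDC, the decarboxylase that makes dopamine in the proximal tubule, had 1310 ± 379 CPM, a log2 fold change of 3.56 ± 0.10 and no kidney library below 646 CPM, against at most 508 CPM elsewhere. CRYL1, gulonate dehydrogenase of the glucuronate pathway, had 1028 ± 404 CPM and 3.68 ± 0.10. GPT2, the mitochondrial alanine aminotransferase, had 928 ± 348 CPM and 3.69 ± 0.14. CLDN2, the cation-selective claudin of the proximal tubule, had 729 ± 330 CPM and 2.92 ± 0.17, with 330 CPM in jejunum. APP, the amyloid precursor protein, had 1653 ± 443 CPM and 2.35 ± 0.09.

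Proximal tubule genes for transport and uptake were mostly higher in kidney. Counts here and in the lists that follow are over tested genes, and a gene present in kidney alone passes the filter on low counts through its kidney level. Such a gene can only be called higher, so the high counts of the nephron lists follow in part from the choice of members and the filter. Over all tested genes, 17.9% were higher, 14% lower and 6.19% higher than in each tissue, and each list count is to be read against these shares. Of 35 genes found in the files 32 were tested, 30 were higher than the mean of the other tissues and 2 lower, 19 were higher than in each tissue, and the median log2 fold change was 3.99. Without the 3 libraries that stood apart 29 of 31 were higher and the median was 4.14. Organic anion carriers were also higher: SLC22A8 ranged from 67.9 to 502 CPM with a median of 174 and a log2 fold change of 6.19 ± 0.13, and SLC22A6 from 0.389 to 25 CPM with 5.98 ± 0.27. SLC22A6 was at 0 in 16 jejunum, 21 liver and 15 muscle libraries, and its fold change lay between 4.22 and 6.77 over the alternatives. Carriers of sulfate and dicarboxylates were higher too, with SLC13A1 at a median of 96.8 CPM and 4.80 ± 0.14, SLC13A3 at a mean of 239 ± 78.7 CPM and 4.74 ± 0.12, and SLC26A1 at 166 ± 83.8 CPM and 4.57 ± 0.12. SLC4A4, which returns bicarbonate to the blood, had 327 ± 62 CPM and 3.13 ± 0.08, and none of its kidney libraries overlapped those of another tissue. AMN, the membrane anchor of cubilin, had 42.1 ± 19.6 CPM and 5.16 ± 0.18. Without the 3 libraries that stood apart SLC22A8 reached at most 311 CPM, SLC26A1 had 140 ± 42.6 CPM and AMN 39.6 ± 12.3 CPM.

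Several proximal tubule carriers were also high in jejunum or liver. SLC5A12, a lactate carrier, had 509 ± 254 CPM in kidney and 369 CPM in jejunum, within 2-fold. SLC34A3, a second phosphate carrier, had 50 ± 20.6 CPM in kidney and 66.4 CPM in jejunum. The amino acid carriers SLC7A9 and SLC6A19 were higher than the mean of the other tissues but lower than in jejunum, with 42.7 ± 12.3 CPM against 224 and 23.5 ± 24.6 against 194. SLC17A1, an anion carrier, had 51.9 ± 14.7 CPM in kidney and 55.5 CPM in liver. Glucose carriers went both ways. SLC5A2, the sodium-glucose carrier of the early proximal tubule, was higher than in each tissue (3.96 ± 0.28) at only 4.82 ± 4.79 CPM, and without the 3 libraries that stood apart it had 3.27 ± 1.32 CPM and was too low to be tested, while SLC5A1 (log2 fold change -1.60 ± 0.14) and SLC2A2 (-1.53 ± 0.12) were lower. SLC5A1 had 18.1 ± 8.07 CPM in kidney and 1630 CPM in jejunum, and SLC2A2 25.5 ± 6.59 CPM in kidney, 278 CPM in jejunum and 296 CPM in liver. SLC2A2 was still above muscle, at 4.99 CPM. By library totals neither was called lower, with log2 fold changes of -0.72 for SLC5A1 and -0.65 for SLC2A2.

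Of 16 thick ascending limb genes present by symbol 11 were tested. All 11 were higher than the mean of the other tissues, 9 of them higher than in each, with a median log2 fold change of 5.43. Beside UMOD and SLC12A1 these were the claudins that pass calcium, magnesium and sodium between cells: CLDN19 at 72.3 ± 40.2 CPM (5.99 ± 0.15), CLDN10 at 64.2 ± 17.7 CPM (5.43 ± 0.15) and CLDN16 at 6.19 ± 2.92 CPM (5.07 ± 0.25). CASR, the calcium-sensing receptor, ranged from 7.55 to 54.4 CPM with a median of 21.8 and did not overlap the other tissues (5.50 ± 0.21). PTGER3, a prostaglandin E2 receptor, had 19.5 ± 8.03 CPM (4.40 ± 0.17). The 2 exceptions were EGF, the epidermal growth factor precursor, with 93 ± 26.8 CPM in kidney and 142 CPM in muscle, and KNG1, kininogen, with 503 ± 105 CPM in kidney and 2008 CPM in liver. KCNJ1, the potassium channel ROMK, and BSND, a chloride channel subunit, had means of 0.441 and 0.0721 CPM and were not tested.

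In the distal convoluted and connecting tubule list 7 of 10 tested genes were higher and 1 lower, with 5 higher than in each tissue and a median of 2.50. CALB1, a calcium buffer, ranged from 17.3 to 229 CPM with a median of 68.5 (5.46 ± 0.17), entirely above the other tissues. SLC8A1, the sodium-calcium exchanger, had 51.3 ± 15 CPM (2.61 ± 0.11), and CNNM2, a magnesium transport protein, 11.9 ± 2.77 CPM (3.42 ± 0.16). TRPM6, a magnesium channel, had 19.4 ± 7.89 CPM in kidney and 29.3 CPM in jejunum. S100G, another calcium buffer, was lower (-2.92 ± 0.14) with 20.4 ± 11 CPM in kidney and 4952 CPM in jejunum. PVALB, parvalbumin, did not pass (-0.26 ± 0.18) and had 13.2 ± 7.97 CPM in kidney and 535 CPM in muscle. WNK1, a kinase that controls salt carriers, was called higher at 1.18 ± 0.15 but not without the 3 libraries that stood apart.

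Principal cells of the collecting duct gave 8 higher and 1 lower of 10 tested genes, 7 higher than in each tissue, and a median of 2.99. The 3 subunits of the epithelial sodium channel were higher than in each tissue: SCNN1A at 162 ± 75 CPM (5.51 ± 0.12), SCNN1B at 26.7 ± 15.4 CPM (4.64 ± 0.22) and SCNN1G at 33.5 ± 11.4 CPM (6.08 ± 0.18). HSD11B2, which protects the mineralocorticoid receptor from cortisol, ranged from 58.1 to 224 CPM with a median of 120 against at most 3.57 CPM as a mean elsewhere (5.84 ± 0.13). The receptor itself, NR3C2, did not reach a 2-fold difference (0.82 ± 0.11), with 28.8 ± 11 CPM in kidney and 30.5 CPM in jejunum. AQP3, a basolateral water channel, had 116 ± 44.7 CPM (2.63 ± 0.15). AVPR2, the vasopressin receptor, had 3.99 ± 2.65 CPM (2.12 ± 0.24). AQP2, the vasopressin-regulated water channel that defines this cell, had a mean of 0.0554 CPM in kidney and was not tested, and AQP4 was lower than the mean of the other tissues (-2.51 ± 0.43).

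Intercalated cells secrete acid or base. Of 15 of their genes present by symbol 10 were tested. All 10 were higher, 9 of them higher than in each tissue, with a median of 5.51. The anion exchangers SLC4A1 at 50.3 ± 29.9 CPM (5.67 ± 0.17), SLC26A7 at 113 ± 45.1 CPM (5.56 ± 0.15) and SLC26A4, pendrin, at 15 ± 10.6 CPM (5.02 ± 0.21) did not overlap other tissues. Proton pump subunits were low in level and large in fold: ATP6V1B1 had 15.2 ± 5.2 CPM (6.07 ± 0.21), ATP6V1G3 21 ± 7.17 CPM (5.04 ± 0.18) and ATP6V0D2 10.4 ± 5.2 CPM (5.46 ± 0.23). RHCG, an ammonia channel, had 37.4 ± 20.5 CPM (5.63 ± 0.18), while its relative RHBG was shared with liver at 9.91 ± 6.17 and 8.26 CPM. FOXI1, the factor that defines these cells, had a mean of 0.064 CPM and was not tested.

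Podocyte genes were thinly measured. Of 14 in the files 7 passed the filter, 5 of these were higher, 4 higher than in each tissue, and the median was 3.47. WT1, the podocyte transcription factor, ranged from 11.3 to 61.1 CPM with a median of 32.4 (5.85 ± 0.17). PTPRO, a podocyte phosphatase, had 22.5 ± 8.34 CPM (4.19 ± 0.19), and in both genes every kidney library lay above every library of another tissue. NPHS1, nephrin, had a mean of 0.148 CPM, SYNPO 0.1 CPM, and FOXC2 was listed at 0. A value near 0 is no sign of absence in these files, since NDUFA2, a respiratory chain subunit that most cells use, was listed at 0 in all 4 tissues. The same limit holds for AQP2, FOXI1, KCNJ1 and BSND.

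**Figure D3:**
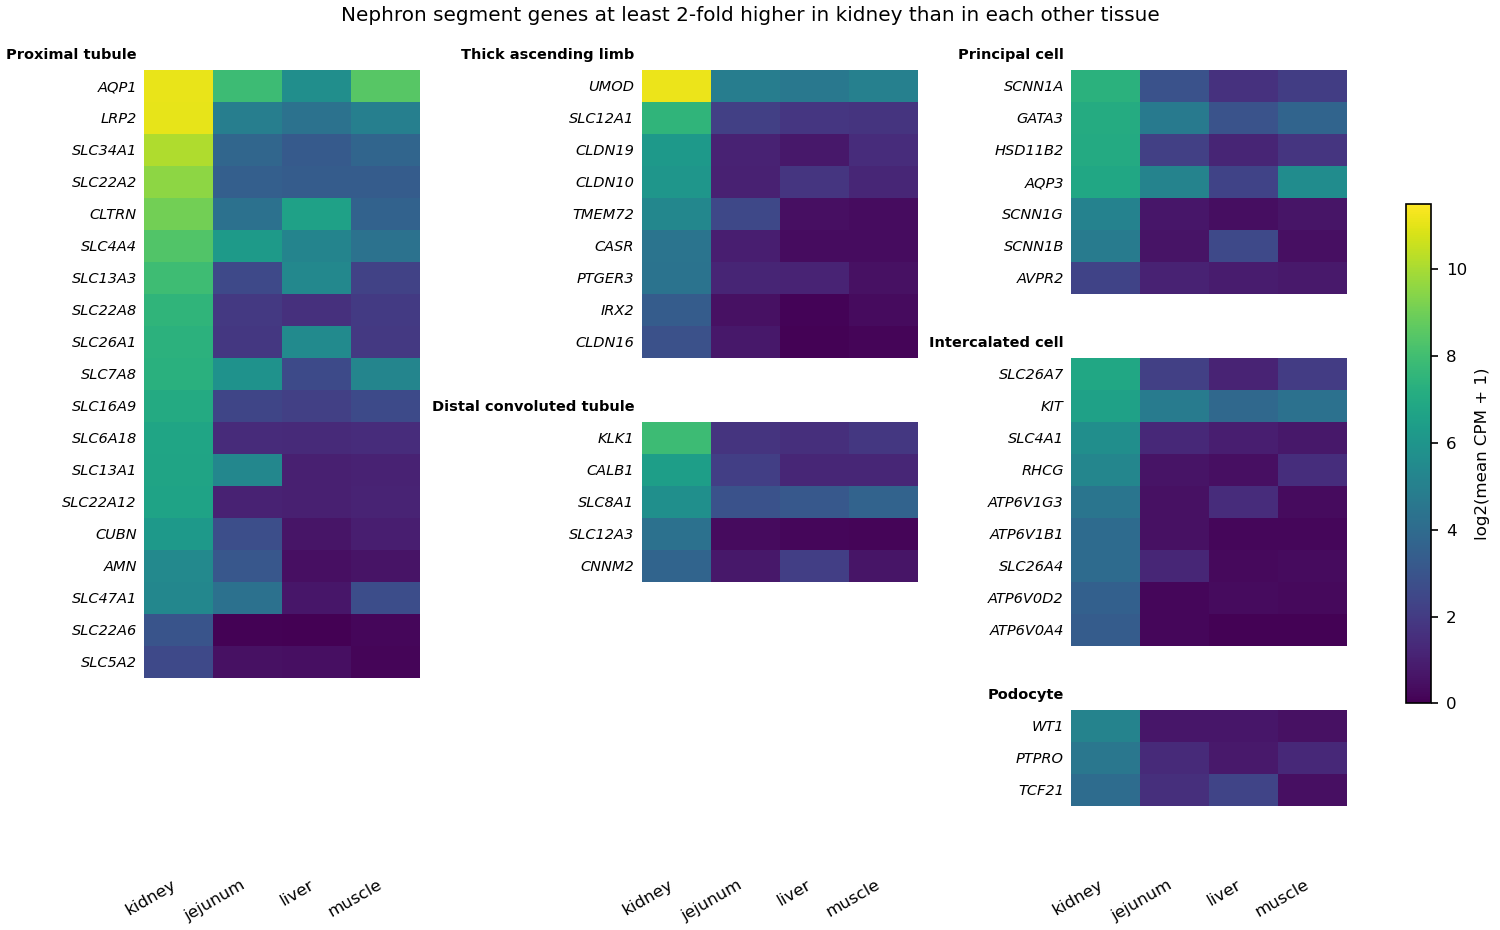
Mean level, as log2(mean CPM + 1), of nephron segment genes that were at least 2-fold higher in kidney than in each other tissue, in blocks by segment and ordered by kidney level. Kidney is the brightest column for each gene, and AQP1, LRP2 and UMOD are brightest of all with means of 2233, 2168 and 2285 CPM.

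Hormone genes were mostly higher than the mean but often shared. Of 12 tested 11 were higher and 1 lower, with a median of 2.50, and 3 were higher than in each tissue. PTH1R, the parathyroid hormone receptor, ranged from 152 to 694 CPM with a median of 280 (5.22 ± 0.13), entirely above the other tissues. Its highest values, 694, 689 and 526 CPM, were those of the 3 libraries that stood apart, and the others reached at most 438 CPM. CYP24A1, which inactivates vitamin D, had 38.8 ± 25.7 CPM (5.52 ± 0.21), and CYP27B1, which activates it, had 22 ± 3.11 CPM in kidney and 20.5 CPM in muscle. MME, the peptidase neprilysin, was higher than the mean at 522 ± 114 CPM, with 643 CPM in jejunum (3.52 ± 0.08). AGT, angiotensinogen, was lower (-3.43 ± 0.19), with 6.45 ± 3.48 CPM in kidney and 1162 CPM in liver. EPO had a mean of 0.433 CPM and was not tested.

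Transcription factors of the kidney list gave 23 higher and 2 lower of 27 tested genes, 13 higher than in each tissue and a median of 3.62. LHX1, a factor of nephron formation, had 26.2 ± 17.2 CPM (5.92 ± 0.19), EMX1 24.6 ± 6.68 CPM (5.91 ± 0.19), EMX2 67.8 ± 21.1 CPM (5.33 ± 0.14) and TFAP2B, a factor of distal tubule cells, 15.8 ± 4.65 CPM (5.17 ± 0.19). ESRRG, an estrogen-related receptor, ranged only from 69.9 to 144 CPM with a median of 90.9 (4.49 ± 0.14). HNF4A, a factor of absorptive epithelia and liver, had 322 ± 113 CPM in kidney, 340 CPM in jejunum and 390 CPM in liver (1.55 ± 0.11).

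Several HOX genes, which mark position along the body axis, were also present in muscle. HOXA9 had 143 ± 35.3 CPM in kidney, 60.3 CPM in muscle and 2.04 CPM or less elsewhere (4.67 ± 0.14), and HOXA10 had 133 ± 50.9 CPM with 19.3 CPM in muscle (5.09 ± 0.17). HOXB8 was higher than in each tissue with 40.5 ± 18.9 CPM and 1.25 CPM in muscle (5.45 ± 0.15). HOXD8 and HOXA7 were shared with muscle, at 141 ± 41.8 and 82.6 ± 21.6 CPM in kidney against 206 and 56.8 CPM in muscle. HOXC8, HOXC9 and HOXC10 had higher means in muscle, at 114, 62.6 and 69.5 CPM, than in kidney, at 9.04, 23.4 and 8.08 CPM. EYA1, a factor of organ and muscle formation, was lower in kidney (-3.31 ± 0.56), with 0.134 ± 0.231 CPM against 21.8 CPM in muscle.

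Inositol, glucuronate and xylulose enzymes, the route by which xylulose is formed in the body, were not uniformly high. Of 12 tested genes 4 were higher and 3 lower, against 17.9% and 14% of all tested genes, with a median of 0.63. Only MIOX and CRYL1 were higher than in each tissue, against 6.19% of all tested genes. AKR1A1, which reduces glucuronate, had 224 ± 66.4 CPM in kidney against 117 CPM in jejunum and 135 CPM in liver (1.71 ± 0.11). XYLB, xylulokinase, was higher than the mean (1.38 ± 0.15) at 70.9 ± 30.3 CPM, with 68.2 CPM in jejunum and 91.6 CPM in liver. DCXR, which makes xylitol from xylulose, had 20.4 ± 13.1 CPM and did not reach a 2-fold difference (0.83 ± 0.17), nor did SORD, sorbitol dehydrogenase (0.66 ± 0.12). UGDH (-1.52 ± 0.17), GUSB (-1.79 ± 0.12) and RGN (-1.32 ± 0.21) were lower. None of these 3 passed as lower under scaling by library totals, where 7 of the 12 were higher.

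Of 14 tested gluconeogenic and ammonia-producing genes 7 were higher and 1 lower, against 17.9% and 14% of all tested genes. Their median was 0.99. LDHB was higher than in each tissue. A further 4 genes were within 2-fold of liver and higher than in jejunum and muscle, against 3.4% of all tested genes. PCK1, which commits oxaloacetate to glucose synthesis, ranged from 146 to 3000 CPM in kidney with a median of 1291 and had a mean of 2057 CPM in liver (2.45 ± 0.18). The 2 lowest PCK1 values were those of replicates 17 and 5, which stood apart, and without the 3 libraries the range was 264 to 3000 CPM. FBP1, fructose bisphosphatase, had 1119 ± 397 CPM in kidney and 1032 CPM in liver (2.91 ± 0.11). G6PC1, which releases glucose, did not pass (0.81 ± 0.17), with 107 ± 79.5 CPM in kidney and 609 CPM in liver. GLUD1, glutamate dehydrogenase, which releases ammonia, had 202 ± 76 CPM with 976 CPM in liver and did not pass (-0.28 ± 0.13). FBP2, the muscle isoform, was lower than in each tissue (-4.90 ± 0.18).

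Amino acid catabolism gave 24 higher and 1 lower of 29 tested genes with a median of 2.43. Of the 29, 5 were higher than in each tissue, against 6.19% of all tested genes. Another 11 were within 2-fold of liver and higher than in jejunum and muscle, against 3.4% of all tested genes. ASS1, argininosuccinate synthase, which in kidney makes arginine, had the highest level of the 11 with 3411 ± 828 CPM, from 1863 to 5299, against 1834 CPM in liver and 642 CPM in jejunum (2.94 ± 0.15). GATM, which makes the precursor of creatine, had 785 ± 402 CPM in kidney and 1317 CPM in liver. DMGDH, which oxidises dimethylglycine, had 453 ± 145 and 502 CPM, and UPB1, of pyrimidine breakdown, 832 ± 312 and 1150 CPM. The 5 were DDC, HOGA1 of hydroxyproline breakdown (3.84 ± 0.13), DDO, the D-aspartate oxidase (3.62 ± 0.14), ACY1, an aminoacylase (2.43 ± 0.11), and XPNPEP2, a brush border aminopeptidase (5.32 ± 0.15). BHMT, which remethylates homocysteine, was higher than the mean at 214 ± 191 CPM but below liver at 1271 CPM. GLDC, of glycine cleavage, was the 1 lower gene (-2.69 ± 0.28).

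The remaining metabolic lists were mixed. For glutathione and organic anion detoxification 5 of 10 tested genes were higher and 2 lower, against 17.9% and 14% of all tested genes. Their median was 0.45, and 4 of 10 were higher without the 3 kidney libraries that stood apart. DPEP1, a brush border dipeptidase, had 152 ± 80.3 CPM (5.23 ± 0.17). GPX3, the plasma glutathione peroxidase, had 4.26 ± 3.99 CPM (5.57 ± 0.26) with 3 counts each in liver and muscle. Its level was 3.09 ± 1.13 CPM and its log2 fold change 5.10 when the 3 kidney libraries were left out. CYP2E1 (-3.23 ± 0.18) and SLC22A7 (-1.86 ± 0.24) were lower. For fatty acid oxidation and peroxisomes 7 of 21 were higher and 1 lower, against 17.9% and 14% of all tested genes, with a median of 0.76 and no gene higher than in each tissue. By library totals 16 of the 21 were higher and 2 higher than in each tissue, with a median of 1.63. ACADM had 338 ± 116 CPM in kidney and 293 CPM in liver (1.47 ± 0.10), and CPT1A 160 ± 72.1 and 256 CPM (1.44 ± 0.14).

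**Figure D4:**
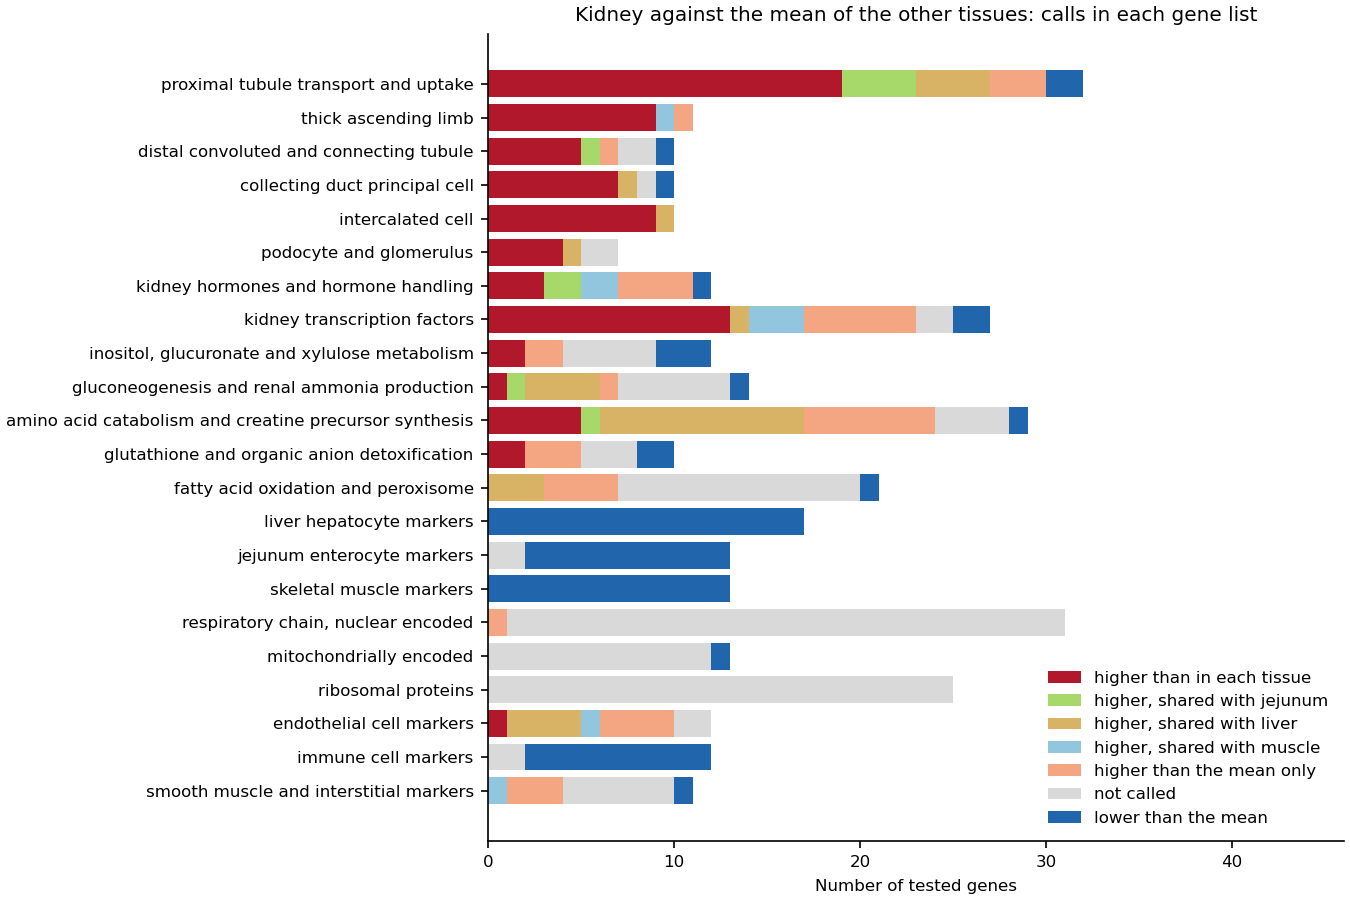
Number of tested genes of each list by call in kidney. Red marks genes higher than in each tissue, green, tan and light blue genes higher than the mean and within 2-fold of jejunum, liver or muscle, orange other genes higher than the mean, grey genes not called and dark blue genes lower than the mean. Red is the largest class of each nephron list, and tan is the largest class of amino acid catabolism, with 11 of 29 genes. Over all tested genes 3.4% were at least 2-fold above jejunum and muscle and within 2-fold of liver.

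Many genes were high in kidney and in 1 other tissue. Across all tested genes kidney was at least 2-fold above jejunum and muscle and within 2-fold of liver in 391 genes (3.4%), at least 2-fold above liver and muscle and within 2-fold of jejunum in 362 (3.14%), and at least 2-fold above jejunum and liver and within 2-fold of muscle in 308 (2.68%). Among the most abundant genes shared with jejunum were PDZK1, a brush border scaffold (1240 ± 303 CPM in kidney and 1662 CPM in jejunum), NDRG1, SLC5A12 and MME. With liver they were ASS1, MTARC2, a mitochondrial amidoxime reductase (1977 ± 920 and 2629 CPM), PCK1, FBP1 and DAB2, an adaptor of receptor uptake (993 ± 321 and 1067 CPM). With muscle they were PDHA1, of pyruvate dehydrogenase (600 ± 111 and 363 CPM), CYS1, cystin (391 ± 151 and 406 CPM), IGFBP5, an IGF-binding protein (328 ± 74.8 and 187 CPM), CPEB4 and SERPINH1. CYS1 in muscle spanned 87.6 to 3463 CPM, so its muscle mean rests on a wide spread.

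Genes lower in kidney than in each other tissue were fewer. Among those with at least 10 CPM in every other tissue, APOB, the core protein of chylomicrons and very low density lipoprotein, had the largest decrease, with 14.8 to 67.5 CPM in kidney, a median of 22.2, and means of 2594 CPM in jejunum, 3836 in liver and 53.3 in muscle (-4.96 ± 0.18). NR0B2, a repressor in bile acid control, had 1.92 to 9.16 CPM in kidney (-4.70 ± 0.24), and C3, the central complement protein, 34.9 to 164 CPM against 11364 CPM in liver (-4.39 ± 0.24). C4BPA (-4.39 ± 0.24), ASGR2 (-4.12 ± 0.34) and FOXA3 (-4.11 ± 0.33) were likewise highest in liver. The kidney ranges of these genes overlapped the range of muscle, and several were far higher in the muscle library that stood apart than in the other muscle libraries on average. In that library APOB was at 202 CPM, C3 at 1465, ASGR2 at 277 and FOXA3 at 157. Without it the difference from muscle was -0.86 for APOB, -0.55 for C3 and -0.96 for FOXA3 on the log2 scale, so that these 3 genes were no longer 2-fold lower than in each tissue. ASGR2 kept its call at -1.10, but the muscle means of ASGR2 and FOXA3 without it, 6.08 and 3.71 CPM, lay under the 10 CPM asked of genes named here. NR0B2 and C4BPA kept their calls, at -1.29 and -2.16 against muscle.

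LDHA, the lactate dehydrogenase subunit of glycolytic tissue, ranged from 18.7 to 47.7 CPM with a median of 26.4 in kidney and had 4158 CPM in muscle, 443 in jejunum and 69.1 in liver (-4.10 ± 0.16). LDHB, the subunit of oxidative tissue, was higher in kidney than in each tissue at 25 ± 19.9 CPM (2.44 ± 0.18). Its kidney mean was not above that of LDHA, at 29.2 ± 8.65 CPM, and its highest kidney library was at 107 CPM. SCARB1, the receptor for high density lipoprotein, had 6.07 ± 2.33 CPM in kidney and 21.4 CPM or more elsewhere (-3.28 ± 0.21). EFCAB7, an EF-hand protein, had 64.7 ± 14.7 CPM in kidney and 7275 CPM in muscle (-3.37 ± 0.11). CACNA2D1, a calcium channel subunit, had 0.715 to 7.19 CPM in kidney, below every library of the other tissues (-3.32 ± 0.15). The other 7 genes with that property, named here after their values were seen, were DNASE1L1, FCN2, MAP2K2, MID1IP1, MYH14, SLC35G1 and TLCD4. Under scaling by library totals only 31 genes were lower than in each tissue.

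Markers of the other tissues were lower in kidney, as their choice fixes. All 17 tested hepatocyte genes were lower with a median of -3.11, 11 of 13 enterocyte genes with a median of -3.14 and all 13 skeletal muscle genes with a median of -3.27. Their summed levels in kidney had a median of 1258 CPM and a highest value of 3176 CPM for hepatocytes, 442 and 740 CPM for enterocytes and 1239 and 3854 CPM for muscle. ALB, albumin, had 558 ± 287 CPM in kidney, 1060 CPM in jejunum and 1081 CPM in muscle against 143725 CPM in liver. That muscle mean includes the muscle library that stood apart. Summed hepatocyte levels in muscle had a median of 1885 CPM and a highest value of 11493 CPM. ACTA1, skeletal actin, had 1162 ± 592 CPM in kidney against 337269 CPM in muscle. Of the enterocyte list ANPEP, a brush border peptidase, had 406 ± 151 CPM in kidney and did not reach a 2-fold difference (0.50 ± 0.12), nor did VIL1 (0.84 ± 0.19).

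Genes of the nuclear-encoded respiratory chain stood near the average of the other tissues, with 1 of 31 tested genes higher, none lower and a median of -0.07. The 13 mitochondrially encoded genes had a median of -0.45, with only ND3 lower (-1.02 ± 0.17), and none of 25 ribosomal protein genes was called, with a median of -0.57. These 3 directions depend on the scaling, since by library totals the medians were 0.81, 0.43 and 0.31. Of the 31 respiratory chain genes many had a kidney mean between those of liver and muscle, among them COX5B, a cytochrome oxidase subunit, with 314 ± 92.3 CPM in kidney, 256 CPM in liver and 707 CPM in muscle.

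Endothelial genes were higher in kidney than the mean in 10 of 12 cases, against 17.9% of all tested genes, with a median of 1.46. Their median log2 difference was 3.91 against jejunum, but -0.08 against liver and 0.45 against muscle. The summed level was 212 to 645 CPM in kidney and 16.2 to 44.1 CPM in jejunum. It overlapped that of liver, at 286 to 593 CPM, and that of muscle, at 245 to 460 CPM. EMCN, an endothelial sialomucin, was the 1 member higher than in each tissue (36.3 ± 10.1 CPM, 3.11 ± 0.12). Immune genes were lower than the mean of the other tissues in 10 of 12, against 14% of all tested genes, with a median of -1.46. Among them were the T cell gene CD3D (-1.88 ± 0.17) and the monocyte gene CD14 (-2.77 ± 0.17). Their median log2 difference was -1.51 against jejunum and -1.13 against liver but -0.02 against muscle, and 0 were lower than in each tissue. Summed immune levels were 64.3 to 195 CPM in kidney and 38.3 to 206 CPM in muscle. By library totals only 2 of the 12 were lower and 2 higher. Of the smooth muscle and interstitial genes 4 of 11 were higher and 1 lower, against 17.9% and 14% of all tested genes, and by library totals 7 were higher and 0 lower. DCN, decorin, had 163 ± 52.3 CPM in kidney against 725 CPM in muscle (1.52 ± 0.10). Without the 3 libraries that stood apart the call of PDGFRA was lost and 3 of 11 were higher.

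Kidney-high genes varied among the 24 kidney libraries by a median SD of 0.53 on the log2(CPM + 1) scale, over the 201 genes higher than in each tissue with at least 50 CPM. Without the 3 libraries that stood apart the median SD was 0.42. The steadiest were EPB41L4A (SD 0.22, 44.9 to 80.3 CPM), IGF1R, the IGF receptor (0.23, median 123 CPM), ESRRG (0.23), AP2A2 (0.23), ERMP1 (0.24) and NR2F2 (0.24). The least steady were TXNDC17 (SD 1.91, 3.47 to 562 CPM), FRMD1 (1.63), CTSC, a lysosomal protease (1.22, 37.4 to 569 CPM), SLC6A18, an amino acid carrier of the late proximal tubule (1.21), TNIP1 (1.16) and SPP1, osteopontin (1.10). Of these 6, 4 stayed among the 6 most variable genes without the 3 libraries.

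The 3 libraries did not move in 1 direction. LRP2 was at 689, 705 and 1266 CPM in replicates 5, 17 and 7 against a median of 2280, and CTSC at 39.5, 47.7 and 73.7 CPM against 329. Such values were not limited to them, since xylose replicate 13, which did not stand apart, was at 1266 CPM for LRP2 and 37.4 CPM for CTSC. MIOX (1630, 1183 and 1402 CPM) lay within the range of the other libraries. UMOD was lowest in replicate 17 and highest in replicate 7, and CUBN was highest in replicate 17 at 444 CPM. SLC6A18 was at 1050 CPM in replicate 7 and TNIP1 at 1304 CPM. Without the 3 libraries TNIP1 fell below the 2-fold threshold, with a log2 fold change of 0.80 in place of 1.64.

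**Figure D5:**
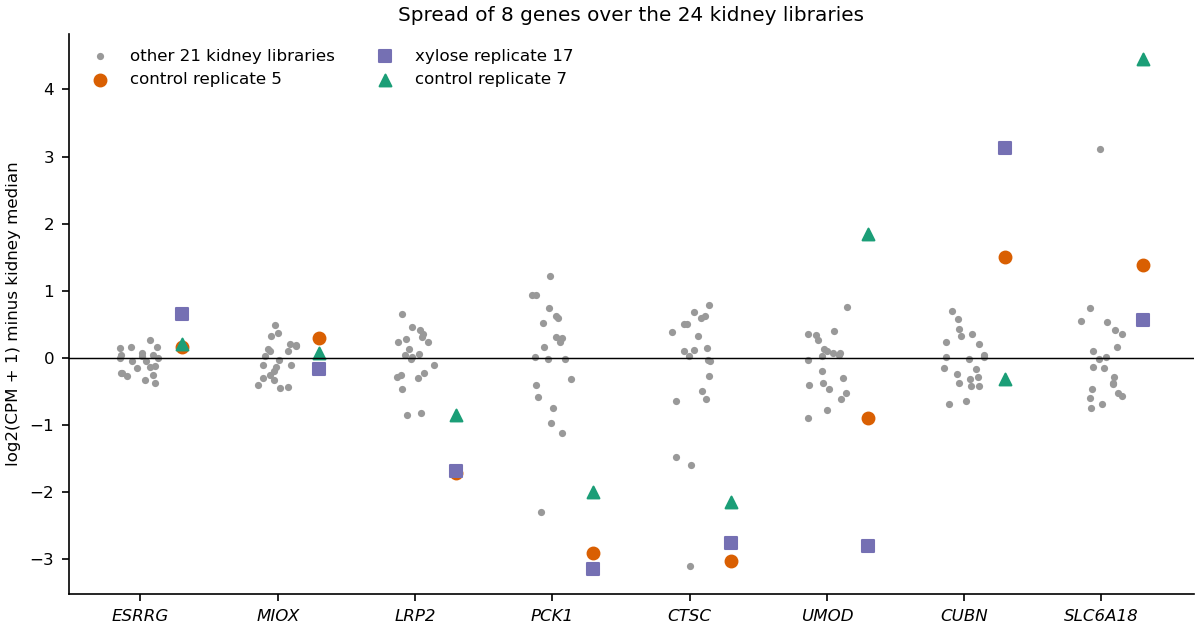
Level of 8 genes in each kidney library relative to the kidney median, on the log2(CPM + 1) scale. Grey points are the other 21 libraries and coloured symbols the 3 that stood apart. ESRRG and MIOX stay within 1 of the median in every library. PCK1 and CTSC are low in the 3 libraries, but also in xylose replicate 13 (-2.29 and -3.10). Among the others CTSC is also low in control replicates 6 (-1.59) and 12 (-1.47), and PCK1 in xylose replicate 21 (-1.12). UMOD, CUBN and SLC6A18 reach values far from the median in 1 or 2 of the 3 libraries.

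The contrast of kidney with the other tissues was also compared between the diets. No gene of 11511 (0%) had a different contrast on the xylose diet at an adjusted p below 0.05. The smallest adjusted p was 0.109, and 437 genes had an unadjusted p below 0.05 (edgeR). With no difference in any gene a share of about 0.05 would pass that threshold, and 437 of 11511 is under it. DESeq2 on the same libraries called 3 genes, and edgeR called the same 3 with all 96 libraries (adjusted p = 0.0309 each). By DESeq2 these were TNIP1 (log2 difference -1.78, adjusted p = 0.0285), SLC6A18 (-2.12, 0.0411) and ENSSSCG00000018631 (-3.13, 0.0475). Without the 3 kidney libraries that stood apart DESeq2 called 0 genes, and the log2 differences of the 3 genes were -0.78, -1.26 and -1.93 with an adjusted p of 1 each. The high kidney values of SLC6A18 were those of control replicates 7, 6 and 5, at 1050, 413 and 124 CPM, of which 2 stood apart. UMOD had the largest difference of the contrast among the markers, with 2711 ± 1782 CPM on the control diet and 1859 ± 728 CPM on the xylose diet (SD, n = 12 each). Its log2 difference of the contrast was -0.72 ± 0.25, with an unadjusted p of 0.00467 and an adjusted p of 1 (edgeR). Without the 3 libraries the means were 2341 ± 673 (n = 10) and 1999 ± 569 CPM (n = 11), and the log2 difference was -0.40 ± 0.20 with an adjusted p of 1 (edgeR). The diet of a kidney library is less certain than its tissue, since only 12 of the 24 kidney libraries had the same diet under both assignments of the files, against 24 with the same tissue.

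Levels of 6 genes, 1 for each nephron segment, were correlated over the 24 kidney libraries. None of the 15 pairs passed a permutation test after Benjamini-Hochberg adjustment, where the smallest adjusted p was 0.18. UMOD and AQP3 had the largest coefficient, with Pearson's r of 0.49 (p = 0.022) and Spearman's rho of 0.38 (p = 0.067), and r was 0.42 without the 2 libraries farthest from the UMOD median, 0.65 in lane 7 and 0.21 in lane 8. UMOD and WT1 had r of -0.43 (p = 0.036, rho -0.16, p = 0.44), which was 0.09 without the 2 libraries farthest from the UMOD median. Within lanes r of this pair was -0.49 in lane 7 and -0.65 in lane 8. AQP3 and SLC4A1 had r of -0.70 in lane 7 and 0.52 in lane 8.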

How the data were processed

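The authors deposited raw read counts per gene, 1 file per library; the submitters' processing notes list STAR and featureCounts. For genome build, annotation and strand setting nothing was given in the sources used here, so counts of overlapping, antisense or near-identical genes are uncertain. Symbols came from the supplied gene table for 14857 of 25880 identifiers. Genes were filtered with filterByExpr, scaled with TMM and tested with edgeR 4.0.16 quasi-likelihood (R 4.3.3), with tissue and sequencing lane as terms and Benjamini-Hochberg adjustment over all tested genes. A call needed an adjusted p below 0.05 and a 2-fold difference. DESeq2 1.42.0, limma 3.58.1, other scalings, filters, thresholds, lanes, a replicate block and left-out libraries were alternatives. Fitting code was tested on simulated data. Replicates are numbered in the order of their records. A library stood apart where its mean deviation was over 0.7. P-values measure the spread between libraries of a tissue, estimated for each gene over all 4 tissues together and not over kidney alone. Libraries were taken as independent, though the series design names 24 animals for 96 libraries, so that several come from 1 animal. Named genes were the 5 markers, the 12 largest folds and 12 highest levels among genes higher than in each tissue, the 10 most negative folds, the 5 highest levels shared with each tissue, the 6 most and 6 least variable, and members of 22 lists (405 of 466 symbols in the files). Members, lists and rules were chosen with earlier results of these data known. Sequences were not used here, and some members of the lists are not reported here.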

Additional observations from a re-analysis of the deposited data

How the results depend on the processing

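The counts of 2059 higher, 1610 lower, 713 higher than in each tissue and 158 lower than in each tissue moved by over 1.5 times under 4 of the 19 alternatives. Scaling by library totals gave 5134, 779, 1674 and 31. A threshold of 4-fold gave 924, 723, 345 and 22, and no fold threshold 4229, 3863, 1343 and 665, since most genes differ by less than 2-fold. Without a filter on low counts 3290 genes were higher and 1096 higher than in each tissue, because more genes were tested. The count of genes whose kidney contrast differed by diet was 0, and 3 with the DESeq2 test and 3 with all 96 libraries (the same 3 genes); the cause was not tested. A block by lane and plate column gave 2036, 1617, 713 and 146, and 0 for diet. The assignment of files in the record exchanges only jejunum and liver, which fixes the same 4 counts, and is no test of them. Of 388 named and list genes, 313 kept their call under all 17 alternatives that were refitted and 0 changed direction; library totals moved the most calls. Leaving out 2 kidney libraries, 1 muscle library, the 3 kidney libraries that stood apart or the 5 such libraries of any tissue was chosen after seeing the data and kept each of the 4 counts within 1.5 times. Also added then, DESeq2 without the 3 kidney libraries called 0 genes for diet. Genes of few counts in the other tissues have fold changes that depend on the prior count.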
